A study of Mus musculus with 18 samples.

Results

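Accessible chromatin around 9 genes that encode mitogen-activated protein (MAP) kinases, a kinase that feeds into them and the kinases they activate was described in bone marrow-derived macrophages (BMDMs). The genes were Mapk3, Mapk8, Mapk9, Mapk14, Map3k8, Mapkapk2, Mapkapk3, Rps6ka4 and Rps6ka5, 9 of the 21938 protein-coding genes of the GENCODE M21 annotation. They were chosen by name and role, with earlier results of these data known. For each gene, all entries of the authors' ATAC-seq catalog that lay in the gene body or up to 50000 bp to either side of the start site furthest upstream were collected. These windows held 106 of the 59617 extended regions, 184 of the 82391 reference peaks and 188 of the 84660 summits, and no summit lay in more than 1 window. For 4 of the regions, the window edge left the best summit outside.

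ATAC-seq reads out where the Tn5 transposase can insert adapters into exposed DNA. The cells were wild type BMDMs that had been differentiated from the marrow of young adult male C57/BL6 mice, and all of them were kept in the vehicle DMSO for 1 h first. The 9 groups of 2 libraries were an untreated group, 4 groups that received LPS (bacterial lipopolysaccharide, sensed by Toll-like receptors) and 4 groups that received IL-4, a cytokine, both at 10 ng/mL and collected after 30 min or after 1, 2 or 4 h. In the study, this catalog marked the cis-regulatory elements at which histone acetylation was followed under kinase inhibitors. The deposited lists had been pooled over all 18 libraries and carried no column per library, so an effect of LPS, IL-4 or time on these genes was not analysed here, no spread between replicates could be given, and the depth of the libraries is unknown. Values below are single values of the pooled catalog, and their order was not tested.

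A reference peak is an interval of accessible DNA, an extended region joins neighbouring peaks with their flanks, and a summit is the highest point inside a peak with a score. No source used here gives the scale of this score. It took 219 distinct values between 102 and 2781, with a median of 737, and is used here as a rank. Start-site peaks were present for 10 of 10 macrophage markers, for 1 of 4 T cell markers (Lck), 2 of 4 B cell markers (Ms4a1 and Pax5), 2 of 3 stromal markers (Col1a1 and Pdgfra), 0 of 3 erythroid and 0 of 3 neuronal markers.

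MAP kinases work in relays: a MAP3 kinase phosphorylates a MAP2 kinase, which in turn phosphorylates the MAP kinase. Mapk3 encodes ERK1, Mapk8 and Mapk9 encode the stress-activated kinases JNK1 and JNK2, and Mapk14 encodes p38-alpha. Map3k8 encodes TPL2, the kinase that links Toll-like receptor signals to ERK in macrophages. Downstream of p38 act MK2 and MK3, encoded by Mapkapk2 and Mapkapk3, which control the stability of cytokine mRNAs through the RNA-binding protein tristetraprolin. Downstream of both p38 and ERK act the mitogen- and stress-activated kinases MSK2 and MSK1, encoded by Rps6ka4 and Rps6ka5, which phosphorylate histone H3 and the transcription factor CREB.

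All 9 kinase genes had a reference peak within 1000 bp of an annotated start site (100%, 95% Wilson interval 70.1% to 100%, counting error only). Among all protein-coding genes 12402 of 21938 did, or 56.5%. A gene without a peak here is one with no site that passed the filter of the catalog, which kept peaks with a very low q-value that overlapped between replicates, so weaker accessibility there was not measured. The best start-site summit of each gene was ranked among the 12321 coding genes with such a summit, whose scores had a median of 1456 and quartiles of 1071 and 1799. The median over the 9 genes was 1851. Scores of 7 genes were above the median of coding genes and those of 6 above the third quartile. From the highest to the lowest, the start-site score was 2297 for Rps6ka5, 2206 for Mapk14, 1942 for Mapk8, 1864 for Map3k8, 1851 for Mapk9, 1825 for Mapkapk2, 1670 for Mapkapk3, 1381 for Mapk3 and 1153 for Rps6ka4. The highest and the lowest value thus belonged to the genes of the MSK pair, at percentiles 99.1 and 30.2 of coding genes.

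**Figure D1:**
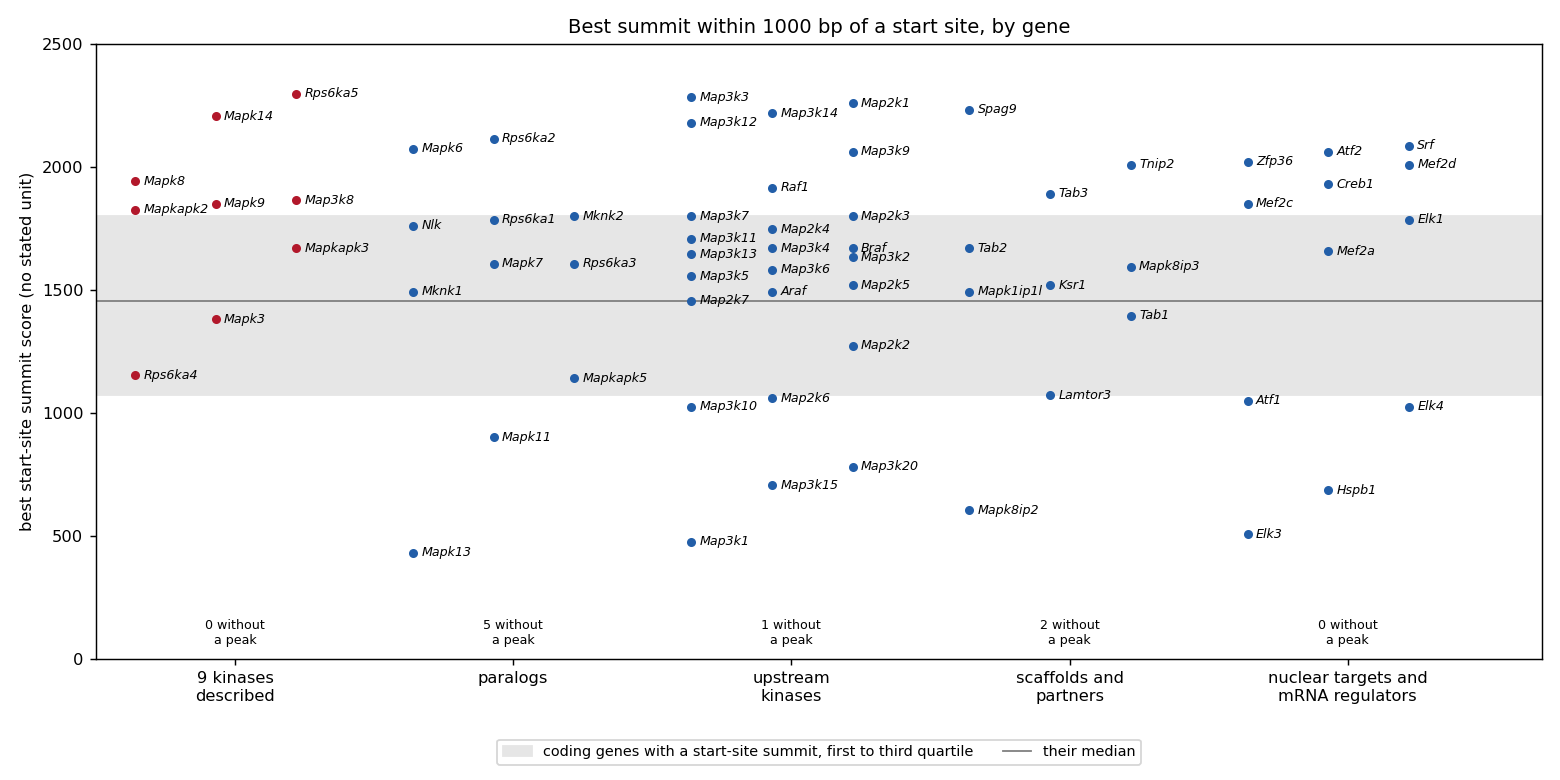
Best summit score within 1000 bp of a start site (y axis, no stated unit) for the 9 kinases (red) and for listed genes of the same pathway (blue), 1 point a gene, with the span from the first to the third quartile (grey band) and the median (line) of coding genes. Rps6ka5 at 2297 and Mapk14 at 2206 lie above the band, and Rps6ka4 at 1153 lies in its lower part.

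The p38 gene Mapk14 (chr17:28691329-28748406, plus strand) was accessible directly at its promoter. Its start-site peak spanned chr17:28691052-28691546, 495 bp wide, with the summit 25 bp upstream of the start site, at the 97.1 percentile of coding genes. The start site of the neighbouring gene Slc26a8 lay 1096 bp upstream on the opposite strand. Of the 8 annotated start sites of Mapk14, 6 had a peak within 1000 bp, and the 2 without one lay 37078 and 50290 bp downstream. A region of 5 summits covered the promoter and the first 3543 bp of the gene, where the summit scores were 2206, 593, 534, 439 and 1153 in the direction of transcription.

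The JNK genes resembled each other at the promoter and differed from Mapk14 in the number of regions. The Mapk8 gene (chr14:33377898-33447158, minus strand) had a start-site peak of 505 bp, with its summit 143 bp upstream and a score of 1942. At Mapk9 (chr11:49846751-49886421, plus strand) the peak was 542 bp wide, with its summit 63 bp upstream and a score of 1851. The internal start sites lacked a peak at both genes. These were 5 of the 10 start sites of Mapk8, from 36164 bp downstream on, and 3 of the 7 of Mapk9, from 7462 bp on.

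Mapk3, the ERK1 gene (chr7:126759601-126765819, plus strand), had a start-site score of 1381, near the middle of coding genes at the 45.2 percentile. Its promoter peak of 268 bp had the summit 121 bp upstream. A second peak of 406 bp with a score of 505 lay 981 bp downstream in an intron, 15 bp from another start site of the gene. Of its 7 start sites 6 had a peak.

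At Map3k8, the TPL2 gene on the minus strand of chromosome 18 between 4331327 and 4353015, the promoter was covered by 3 peaks. The best scored one, at 1864, had its summit 423 bp upstream of the start site, and the next, at 1505, had it 25 bp inside the gene. The summit of 1864 was nearer, at 120 bp, to the start site of the long noncoding RNA gene 4833419F23Rik, which runs in the opposite direction. Its score, motifs and CpG ratio therefore cannot be assigned to Map3k8 alone. These summits belonged to a region of 6611 bp with 6 summits, of which 4 scored 1224 or more. A further start site 16720 bp into the gene had a pair of peaks with scores of 1141 and 791.

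The promoters of the MK2 and MK3 genes both scored above the median of coding genes. Mapkapk2 (chr1:131053700-131097826, minus strand) had its start-site summit 43 bp upstream with a score of 1825. Its other annotated start site, 25300 bp downstream, lay in a cluster of 6 summits that scored between 430 and 685. The Mapkapk3 gene (chr9:107254927-107289877, minus strand) had its start-site summit 6 bp inside the first exon, in a peak of 607 bp with a score of 1670. Each of its 7 start sites had a peak within 1000 bp. The scores at 3 internal start sites, 8962, 27941 and 32585 bp downstream, were 1082, 1357 and 189.

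The MSK genes differed most at their start sites. Rps6ka4 (chr19:6829085-6840636, minus strand) had its best summit 24 bp upstream, in a peak of 323 bp with a score of 1153, and 2 further summits of score 495 lay 382 and 721 bp upstream. Its 7 start sites spanned 1051 bp and all had a peak. Rps6ka5 (chr12:100548439-100726983, minus strand) had a single start-site peak, at chr12:100724691-100725604. It was 914 bp wide, at the 98.5 percentile of the widest start-site peaks of coding genes, and held 2 summits with scores of 2297 and 664.

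This peak of Rps6ka5 did not lie at the upstream end of the gene. The most upstream start site and another 39 bp from it begin noncoding transcripts and had no peak within 1000 bp. The peak instead lay within 1000 bp of the start sites 1863, 1955 and 2482 bp further downstream. It covered the first pair of these, which begin coding transcripts, but not the third. Its best summit lay 245 bp upstream of the first of these coding start sites. In all, 3 of the 9 annotated start sites of Rps6ka5 had a peak, and over the 9 kinase genes 43 of 61 did.

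Sequence at the start-site summit is shown for 3 genes that had a searched motif within 50 bases of it, since they include the promoters with the highest and lowest score. Map3k8 also had one, an NF-kB site over its summit, and its sequence is not shown. Each runs 5′ to 3′ on the strand of the gene, over 50 bases to each side of the summit without annotated exons (GRCm38.p6, the coordinates of mm10). Capitals mark an SP/KLF site in Mapk14 (chr17:28691254-28691328), an AP-1 site in Rps6ka4 (chr19:6840637-6840710) and an NF-kB site in Rps6ka5 (chr12:100725315-100725415).
Mapk14 start-site summit: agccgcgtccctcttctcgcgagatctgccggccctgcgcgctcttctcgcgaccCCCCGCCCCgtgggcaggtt
Rps6ka4 start-site summit: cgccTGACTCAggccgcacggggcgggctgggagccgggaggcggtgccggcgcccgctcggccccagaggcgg
Rps6ka5 start-site summit: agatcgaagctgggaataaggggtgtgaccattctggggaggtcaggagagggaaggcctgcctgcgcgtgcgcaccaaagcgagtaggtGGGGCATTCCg

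Over 501 bp around the summit, the G and C content was 62.7% at Rps6ka5, 71.3% at Rps6ka4 and 70.1% at Mapk14, against a median of 61.7% for coding genes with a start-site summit. The ratio of observed to expected CpG was highest at Mapk8 (1.02, percentile 93.7) and lowest at Map3k8 (0.656, percentile 30.1).

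Around the start-site summit, up to 100 bp away, the SP/KLF site GGGGCGGGG, bound by general promoter factors, occurred at 3 of 9 genes (Mapk3, Mapk8 and Mapk14) and at 19.3% of 11073 distinct start-site summits of coding genes. NF-kB sites occurred at Map3k8 and Rps6ka5, against 4.23% of these summits. An AP-1 site was found at Rps6ka4 (4.76% of all), a PU.1/ETS site at Mapkapk2 (3.98%) and an IRF site at Map3k8 (2.26%). The CRE site TGACGTCA, the sequence recognized by CREB and ATF1, was found at 0 of 9 start-site summits and at 3.32% of all. With 9 genes, these counts cannot separate the kinase genes from other genes.

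The kinase genes differed widely in the number of extended regions around them. In the window with the gene body, Mapkapk2 had 26 regions, Mapk3 and Mapkapk3 had 15 each, Rps6ka5 had 12, Mapk14 had 10, Map3k8 had 9, Rps6ka4 had 8, Mapk8 had 6 and Mapk9 had 5. The median was 10, against 5 for all coding genes and 7 for coding genes with a start-site peak. When only the 50000 bp around the start site were counted, which removes the effect of gene length, the median was 9 against 4 and 7, and 6 of the 9 genes had more than 7 regions. This mattered for Rps6ka5, a gene of 178545 bp, where the count was 6 instead of 12.

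**Figure D2:**
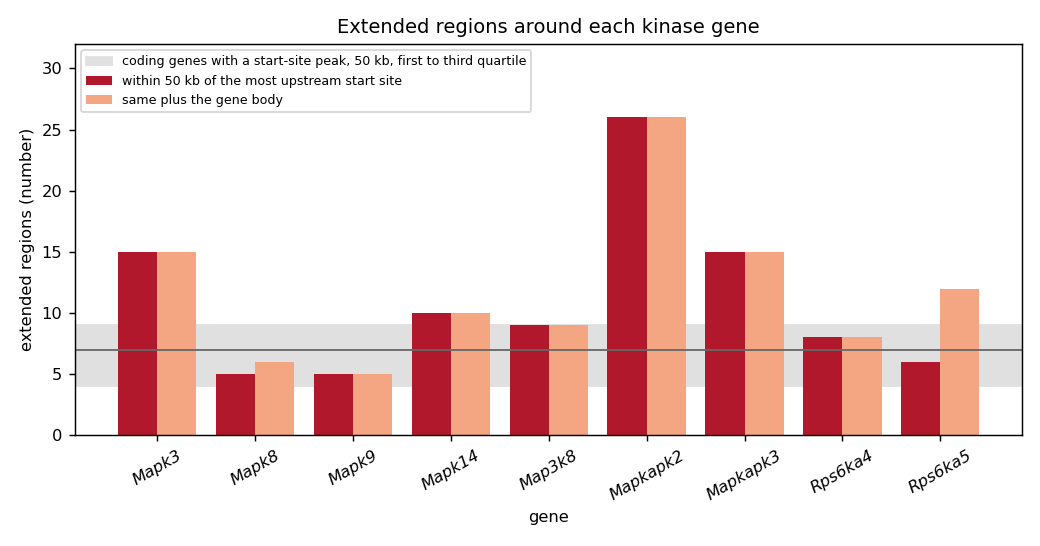
Number of extended regions (y axis) for each kinase gene up to 50000 bp from its start site (dark bars) and with the gene body added (light bars), beside the span from the first to the third quartile (grey band) and the median (line) of coding genes with a start-site peak. Mapkapk2 stands at 26 in both counts, and Rps6ka5 rises from 6 to 12 when its gene body is added.

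Mapkapk2 had the densest surroundings. Within 50000 bp of its start site there were 26 regions, 49 peaks and 50 summits. Of all coding genes, only 1, which is Mapkapk2 itself, had as many regions, while 5 had as many peaks and 16 as many summits, itself included. Both MAPKAP kinase genes together held 83 of the 188 summits (44.1%), the 4 MAP kinase genes 60 (31.9%), the MSK genes 28 (14.9%) and Map3k8 17 (9.04%).

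Most of the Mapkapk2 summits were assigned to the gene itself by distance. Its start site was the nearest coding start site for 43 of 50 summits, and the only other coding gene starting in the window was Dyrk3, 40514 bp upstream. Inside the gene body lay 29 summits, 26 of them in introns. Their scores ran from 250 up to 1825, the latter in an intron 13397 bp downstream, which equalled the score of the promoter.

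The best distal summit of all 9 windows also belonged to Mapkapk2. Here distal means more than 1000 bp from any annotated start site of any gene. This summit lay 6051 bp upstream between genes, in a peak at chr1:131103695-131104232 of 538 bp, and scored 2166, above the 1825 of the promoter. It was at the 99.9 percentile of the 59886 distal summits of the catalog. An annotated noncoding start site was 1132 bp away, just past the limit used for distal sites. A further upstream summit, 13180 bp from the start site, scored 1773.

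Mapkapk3 shared its surroundings with Cish, which encodes a suppressor of cytokine signalling and starts 6149 bp upstream in the opposite direction. Of 33 summits, 19 were nearest to Mapkapk3. The best distal one, in an intron 11168 bp downstream at chr9:107278504-107278901, scored 1955 against 1670 at the promoter. Cish itself had a start-site score of 1543, and a summit of 1632 lay on its side, 23120 bp upstream of Mapkapk3. In 2 windows, those of Mapkapk2 and Mapkapk3, a distal summit nearest to the kinase gene thus scored above its promoter, and this was also true of Mapk3 with 1955 against 1381.

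At Mapk3 the surroundings belonged mostly to other genes. The gene body held 1 summit, and 8 of the 28 summits in the window were nearest to Mapk3. There were 7 further coding start sites in the window, all with a peak: those of Gdpd3, Ypel3, Tbx6, Ppp4c, Fam57b and 2 gene entries named Aldoa. Gdpd3 was closest, 6733 bp downstream. The summit with the highest score, 1955, was intergenic, 13304 bp upstream of Mapk3 and nearest to it, at chr7:126746110-126746484. Together with a summit of 1531, which lay 12651 bp upstream, it formed a region of 2445 bp.

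The window of Rps6ka4 was uneven. There were 0 summits inside the gene body, 1 of score 274 downstream of the gene, 3 at the promoter, and 10 between 16209 and 36466 bp upstream, all nearest to Ccdc88b, which starts 17575 bp upstream. Among them was a summit of score 2021 at chr19:6869322-6869768, 28950 bp upstream of Rps6ka4 and 11375 bp from the nearest annotated start site. It was at the 99.6 percentile of distal summits and scored above the promoters of both Rps6ka4 (1153) and Ccdc88b (1332).

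Rps6ka5 showed the opposite layout, with no other coding start site in a window of 228.5 kb. Of its 14 summits 11 were nearest to the gene and 9 were inside it. The 6 intronic summits from 87070 bp downstream on scored 439, 1556, 1345, 802, 583 and 889 in the direction of transcription. Just 1 summit, of score 266, was found between the promoter peak and these sites. The summit of 1556 lay 6 bp from an annotated start site, that of a gene model inside Rps6ka5 not classed as protein-coding, and so was not distal. The best distal summit, 1480, was 49185 bp upstream at the edge of the window and nearest to Dglucy.

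Mapk14 had 15 of its 19 summits inside the gene body, 14 of them in introns. Its best distal summit scored 1345, in an intron 46837 bp downstream at chr17:28738035-28738300, and formed a region of 3 summits with those of 1188 and 623. The summits on the upstream side, with scores of 1212, 603 and 727, all lay in introns of Slc26a8. Beyond the end of the gene, 2387 bp outside the window, the next summit scored 1903.

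Mapk8 and Mapk9 had the fewest regions of the 9 genes, although their counts were near the middle of coding genes. Within 50000 bp of the start site each had 5, at the 54.5 percentile. All 6 summits in the window of Mapk8 were nearest to it, and 5 lay in its introns, with scores of 393, 573, 1272, 1188 and 685 from the promoter onwards. No summit was found in the 50000 bp upstream of its promoter peak, although the coding gene Frmpd2 starts there, 24538 bp away and without a start-site peak. At Mapk9 the distal summits scored 1141, 439, 544, 226, 654 and 495. The best of them lay 35297 bp upstream in an intron of Gfpt2, and all were below the promoter score of 1851.

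Map3k8 had 17 summits, of which 14 were nearest to the gene. Beyond its promoter region, the best was intergenic and scored 1721, 38926 bp from the start site on the downstream side and past the end of the gene. A summit of 1059 lay in a coding exon. Mtpap, the only other coding gene starting in the window, had a start-site score of 1394.

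**Figure D3:**
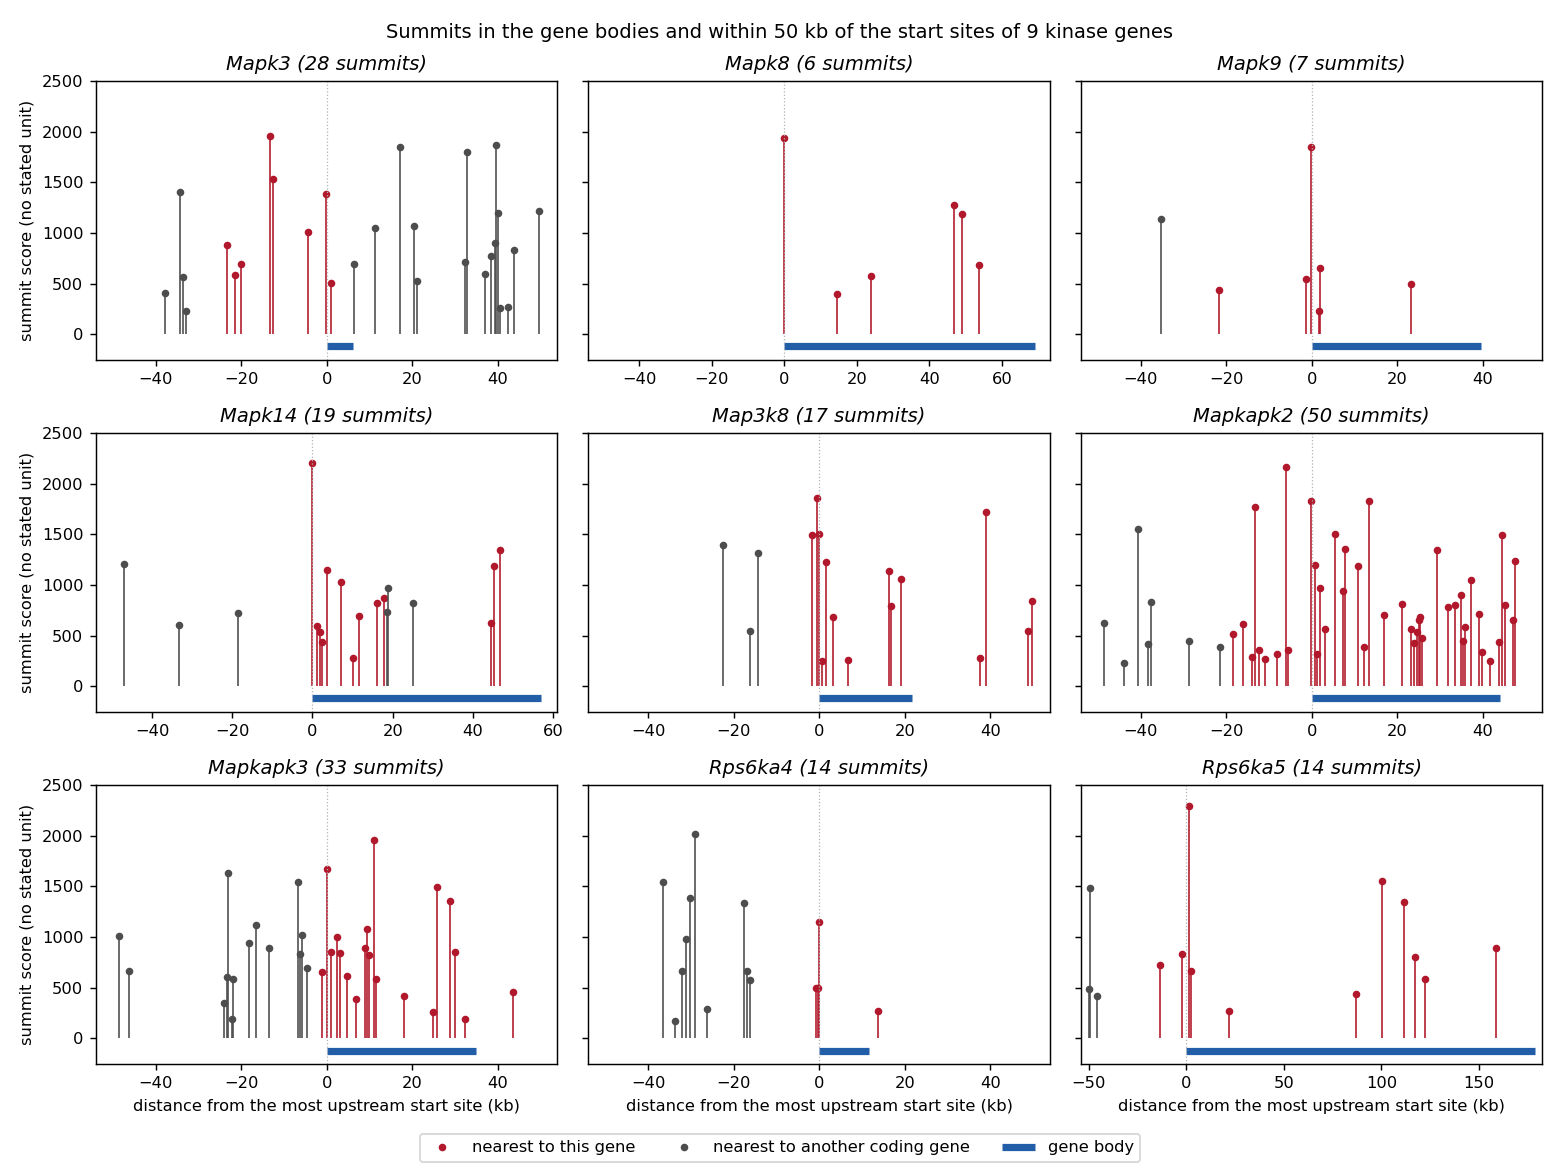
Each panel shows the summits of 1 kinase gene by distance from its most upstream start site in kb (x axis, positive in the direction of transcription) and score (y axis, no stated unit), in red where the nearest coding start site is that of the gene and in grey where it is another, with the gene body in blue. Mapkapk2 has 50 summits and Mapk8 has 6, the body of Rps6ka4 is empty, and the best summit of Rps6ka5 lies 1618 bp downstream of position 0.

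Over all 9 windows, 129 of 188 summits were distal (68.6%), close to the 70.7% of the whole catalog. Their median score was 695, against 664 for all distal summits, and 15 of them (11.6%) were at or above the 90th percentile of distal summits. Introns of the kinase genes themselves held 57 of these distal summits and intergenic sequence held 53. Coding exons held 3. Of all 188 summits, 124 (66.0%) were nearest to a start site of the kinase gene. Repeat-masked sequence made up more than 50% of the 201 bp around the summit for 12 summits, or 6.38%, against 6.15% of the catalog. Regions with 5 or more summits numbered 10 of 106, whereas 1.36% of all regions had as many.

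Motifs of transcription factors were searched on both strands of the 201 bp centred on the top summit of each of the 106 regions. Intervals are 95% Wilson intervals. The AP-1 site TGACTCA, bound by Fos and Jun proteins that act downstream of MAP kinases, was present in 22 regions (20.8%, interval 14.1% to 29.4%), against 17.3% of all 59617 regions. Of the 66 regions whose top summit was nearest to the kinase gene, 11 had it (16.7%). The 22 regions lay in 8 of the 9 windows, the exception being Map3k8. The Map3k8 window did hold AP-1 sites, at summits of score 845 and 544 that were not the top of their region. The RUNX site AACCACA was found in 13.2% (8.03% to 21.0%), against 8.3%. PU.1/ETS sites (GAGGAAGT), read by the factor that defines myeloid cells, were found in 11.3% (6.6% to 18.8%), against 10.1%. STAT6 sites (TTCNNNNGAA), read by a mediator of IL-4 signals, were found in 9.43% (5.21% to 16.5%), against 6.91%.

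NF-kB sites were present in 9 regions in the windows of 6 genes (8.49%, interval 4.53% to 15.4%), against 5.34% of all regions. Of the 66 regions nearest to their kinase gene, 5 had an NF-kB site (7.58%). IRF sites (GAAANNGAAA) were present in 5 regions in the windows of 5 genes (4.72%, 2.03% to 10.6%), against 3.73%, and in 3 of the 66 nearest regions (4.55%). SP/KLF sites were found in 2.83% (0.967% to 7.99%), against 4.57%. The promoter ETS site CCGGAAGT, the C/EBP site (TTGCACAA or TTGCGCAA) and the CTCF site each occurred in 1 region (0.943%, 0.167% to 5.15%), against 1.8%, 1.66% and 3.33%, respectively. Both ETS sites share the letters GGAAGT. Sites for CRE and for MEF2, a p38 target, were found in 0 of 106 regions, against 1.06% and 0.958% of all regions. The upper bound of the Wilson interval is 3.5% for both, and 3 counts in 106, the limit that a count of 0 allows, are 2.83%. At every summit of the windows, not just the top one of each region, CRE sites were found at 2 of 188 (1 each in the windows of Mapk3 and Mapkapk3) and a MEF2 site at 1 of 188, in the window of Mapk3. For each of the 12 motifs in this 201 bp window, the interval included the share of all regions, so no difference was detectable with 106 regions. The RUNX share depended on this setting. Up to 200 bp from the summit it was 21.7% (14.9% to 30.5%), against 12.5% of all regions, and at summits over 1000 bp from a start site it was 17.3% of 75 (10.4% to 27.4%), against 9.63%, and both intervals leave out the share of all regions. These were 2 of 48 such pairs of motif and setting, with no adjustment for their number.

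**Figure D4:**
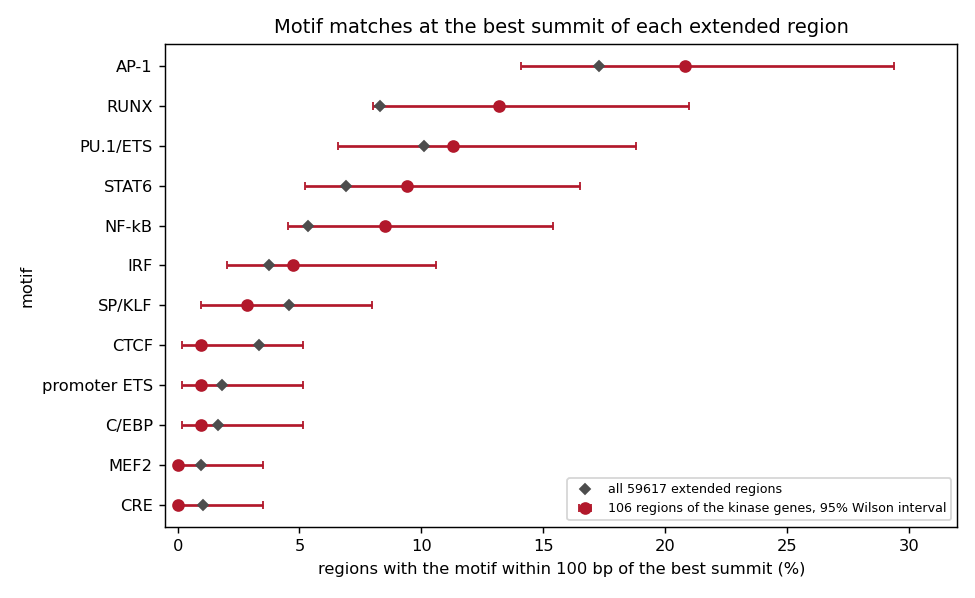
Share of extended regions (x axis, %) with each motif (y axis) in the 201 bp around the top summit, for the 106 regions in the windows of the kinase genes (red, bars are 95% Wilson intervals) and for all 59617 regions (grey diamonds). Every bar includes its diamond, and AP-1 has the highest share in both.

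The best scored distal summits with an AP-1, PU.1/ETS, CRE or NF-kB site within 50 bases are shown, because they carry the motifs of factors that signal-activated kinases are known to act on. Sequences run 5′ to 3′ on the strand of the kinase gene, and capitals mark the AP-1 or NF-kB site. In order they are chr9:107278659-107278759, chr1:131110956-131111056, chr19:6877052-6877152, chr19:6870889-6870989, chr14:33398232-33398332, chr11:49811404-49811504, chr9:107306269-107306369 and chr1:131095719-131095819.
Mapkapk3 intron summit, score 1955: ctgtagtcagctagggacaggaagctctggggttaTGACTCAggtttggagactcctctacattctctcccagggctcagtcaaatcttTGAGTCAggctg
Mapkapk2 upstream summit, score 1773: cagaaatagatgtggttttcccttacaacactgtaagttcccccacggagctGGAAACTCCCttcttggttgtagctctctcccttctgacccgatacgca
Rps6ka4 window summit, score 1543: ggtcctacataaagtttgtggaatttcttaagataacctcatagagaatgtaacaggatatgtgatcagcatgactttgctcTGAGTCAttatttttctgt
Rps6ka4 window summit, score 1381: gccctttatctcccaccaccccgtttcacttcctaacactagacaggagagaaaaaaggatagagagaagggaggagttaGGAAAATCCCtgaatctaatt
Mapk8 intron summit, score 1188: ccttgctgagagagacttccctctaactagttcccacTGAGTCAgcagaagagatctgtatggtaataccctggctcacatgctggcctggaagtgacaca
Mapk9 window summit, score 1141: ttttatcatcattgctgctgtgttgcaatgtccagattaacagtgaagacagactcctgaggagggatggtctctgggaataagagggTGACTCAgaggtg
Mapkapk3 window summit, score 1117: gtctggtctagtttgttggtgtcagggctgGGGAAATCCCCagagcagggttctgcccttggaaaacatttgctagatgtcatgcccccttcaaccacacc
Mapkapk2 intron summit, score 968: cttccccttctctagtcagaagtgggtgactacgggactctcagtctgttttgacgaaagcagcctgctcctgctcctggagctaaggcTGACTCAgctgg

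The Mapkapk3 intron window, at the best distal summit of that gene, held a pair of AP-1 sites written TGACTCA and TGAGTCA, which lay apart. In the Mapkapk3 window of score 1117, the NF-kB pattern matched at 2 overlapping positions, and the capitals cover both. The 5 windows with AP-1 and the 3 with NF-kB did not overlap. The Rps6ka4 window of score 1543 had 35 bases of G or C, and 68.7% of the 201 bp around its summit were repeat-masked, whereas the Mapkapk2 intron window of the same length had 56.

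Other genes of the pathway, from lists chosen by role, were set beside these kinases. Of the paralogs described here, 11 of 16 had a start-site peak (68.8%, Wilson interval 44.4% to 85.8%), and the interval includes the 56.5% of all coding genes. The 5 without one were Mapk4, Mapk10, Mapk12, Mapk15 and Rps6ka6. Within the JNK family, Mapk10, which encodes the neuronal kinase JNK3, had 0 extended regions within 50000 bp and its nearest peak 152034 bp from a start site. Within the p38 family, Mapk14 scored 2206, Mapk11 (p38-beta) 900 and Mapk13 (p38-delta) 430, and Mapk12 (p38-gamma) had its nearest peak 1610 bp from a start site. Among the RSK kinases, which are relatives of the MSKs activated by ERK, Rps6ka2 scored 2114, Rps6ka1 1786 and Rps6ka3 1606, and the nearest peak to Rps6ka6 was 773296 bp away.

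The other paralogs with a start-site peak were Mapk6 (2074), Mapk7 (1606), Nlk (1760), Mapkapk5 (1141), Mknk1 (1493) and Mknk2 (1799). Upstream kinases of the MAP2K, MAP3K and RAF families had a start-site peak in 25 of 26 cases (96.2%, interval 81.1% to 99.3%, against 56.5% of all coding genes), with Map3k19 as the exception, and a median score of 1644 within a range from 476 (Map3k1) to 2284 (Map3k3). Scaffolds and partners had one in 10 of 12 cases (83.3%, interval 55.2% to 95.3%), and the interval includes 56.5%. Those without were Mapk8ip1 and Ksr2, for which the nearest peaks were 3089 and 3106 bp from a start site. The median score was 1556, with a range from 603 (Mapk8ip2) to 2232 (Spag9). Nuclear targets and mRNA regulators had a start-site peak in 12 of 12 cases (100%, interval 75.8% to 100%, against 56.5%), with a median score of 1818.5 and a range from 505 (Elk3) to 2087 (Srf). Zfp36, which encodes tristetraprolin, was at 2021, Creb1 at 1929, Hspb1, a substrate of MK2, at 685 and Atf1 at 1048.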

How the data were processed

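ATAC-seq libraries of 9 groups, 2 each, had been made by the authors. Per the methods and labels, single-end reads were freed of adapters (BBDuk), quality trimmed (Trimmomatic 0.39), mapped to mm10 (ShortStack) and filtered (SAMtools 1.9). The authors called peaks with MACS2 2.2.6 without local background and with duplicates kept, which lets PCR copies add to a peak. Per the methods, the reference set kept peaks that passed a strict q-value limit in each library and overlapped between replicates over a minimum share of their area, so weak or variable sites are left out. No shift to the Tn5 cut site is named, so summits can be offset from the insertion site. The 3 deposited BED lists hold positions and, for summits, a score given by the authors on an unstated scale. They were pooled, so depth and precision per library are unknown, and 0 columns belonged to other samples.

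Entries were intersected with GENCODE M21 and GRCm38.p6 in Python 3.11.15 (NumPy 2.4.6, pandas 2.3.3, SciPy 1.17.1 and Matplotlib 3.10.9), after the entries on all 21 chromosomes had been checked to end inside the assembled sequence. Overlaps needed 1 bp. Interval and motif functions were checked on simulated data. No test over samples was possible, and counts are given beside all coding genes or all regions. Alternatives were other windows, transcript sets, score minimums and motif flanks. Named genes were the 9 kinases with their best start-site and distal summits, their paralogs, and listed pathway genes without a peak, and the highest and lowest of each list, Zfp36, Creb1, Hspb1, Atf1 and neighbouring genes beyond the nearest were added after their values were seen. The values of 1 related gene are not reported here. Of the printable start-site windows, those with a motif are shown. Genes and lists were chosen with earlier results of these data known.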

Additional observations from a re-analysis of the deposited data

How the results depend on the processing

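No paired analysis was possible because the pooled lists carry no replicate, and no library could be left out for the same reason. Of 74 alternatives over 15 results, 64 gave a count or score within 1.5 times the reported one, or a motif share inside its Wilson interval. All 9 genes kept a start-site peak under the 5 alternatives run for that count, including a window of 500 bp and only peaks of at least the median score. The median start-site score stayed between 1838 and 1864, the former over the 8 genes with a summit at the most upstream start site, without Rps6ka5. The median number of regions per gene was 8 within 20000 bp and rose to 16 within 100000 bp. With 50 bp searched to each side of the summit, the share fell to 12.3% for AP-1 (12.7% of all regions) and 0.943% for SP/KLF (2.71%). It fell to 4.72% for STAT6 (3.77%), 0% for IRF (2.01%) and 0% for CTCF (2.8%). With 200 bp to each side, the RUNX share rose to 21.7% (12.5%). At summits over 1000 bp from a start site the promoter ETS and SP/KLF shares were 0%, against 0.515% and 0.984% of all such regions, and in regions nearest to the kinase gene the promoter ETS share was 0%. Of 48 pairs of motif and setting set beside all regions, 2 had an interval that left out the share of all regions, both for RUNX. These were 200 bp to each side of the summit and the summits over 1000 bp from a start site (17.3%, against 9.63%). Narrower windows hold fewer matches by construction. The authors' limit on the q-value, the overlap asked of replicates and the unknown depth all bear on which weak sites could enter the lists.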
